A study of Mus musculus with 31 samples.

Results

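DNA replication licensing and fork genes were followed through all 31 RNA sequencing samples of a study of the chemokine gene Cxcl5 in Panc02 cells, a murine pancreatic adenocarcinoma line. The 46 genes were chosen by symbol, as the subunits of the origin recognition complex, the licensing factors, the MCM2-7 helicase and its activators, the replicative polymerases with primase, RPA with the sliding clamp and its loader, the enzymes that mature the lagging strand, and a pair of fork protection factors. The rule itself used no measured value, but the list was drawn up with earlier results of these data known. Each of the 46 symbols stood on 1 row in each of the 3 count tables, among 55487, 56980 and 56941 genes, and all 46 passed the filter on low counts in every table.

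The first table held WT spheroids in Matrigel kept in control medium (Ctrl), in medium conditioned by untreated bone marrow macrophages (M0-CM) or in medium conditioned by macrophages given IFNγ and LPS (M1-CM), with 3 samples each. The second held WT and Cxcl5-/- cells in 2D culture and as 3D spheroids in Matrigel, with 3 samples in each of 4 groups. The third, called the rescue table here, held 3D cultures of WT cells (n = 2), Cxcl5-/- cells (n = 2), and Cxcl5-/- cells that overexpress a stabilized mutant of Hif1a (Hif1aOE Cxcl5-/-, n = 3) or Myc (MycOE Cxcl5-/-, n = 3). All overexpressing cells thus carried the Cxcl5 deletion too. The knockout was made with lentiviral CRISPR/Cas9 and puromycin selection, and Hif1a and Myc were delivered by retrovirus under the vector's promoter, not under their own. Nothing in the labels says that samples of a group came from separate cultures, so p-values measure the spread between these samples, which may be technical. For the rescue samples the cell line is numbered upward, 1 name a sample, whereas the study's methods name Panc02.

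DNA replication starts in the G1 phase, when the origin recognition complex (Orc1 to Orc6) binds DNA and, with Cdc6 and Cdt1, loads the MCM2-7 ring onto it. Geminin (Gmnn) binds Cdt1 and blocks further loading once S phase has begun. The kinase Cdc7 with its subunit Dbf4 then activates the loaded ring, Cdc45 and the GINS complex join it to form the moving helicase, primase and polymerase α start each new strand, and polymerases ε and δ extend them. On the lagging strand, PCNA, loaded by the RFC complex, holds polymerase δ in place, Fen1 cuts the flaps of the Okazaki fragments and Lig1 seals them. Many of these genes are transcribed in waves at the G1/S border under E2F factors, so that their RNA level in a culture is known to follow the share of cells in the cycle, whereas several subunits of the origin recognition complex are known to be present through the cycle. In RNA from whole cultures, fewer cycling cells and less RNA per cell cannot be told apart.

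Total counts ranged from 41542533 to 78498230 per sample, and the lowest count of any of the 46 genes in any sample was 185. Levels are given as counts scaled to library size (CPM, as edgeR computes it from the TMM-scaled library), log2 fold changes with their SE, and calls as an adjusted p under 0.05 in edgeR's quasi-likelihood test. The targeted gene was read first. Cxcl5 was at 45.6, 47.3 and 49.1 CPM in 2D WT, at 37.4, 32.7 and 32.7 CPM in 2D Cxcl5-/-, at 28.5, 24.5 and 28 CPM in 3D WT, and at 65.5, 40.9 and 45.4 CPM under the 3D Cxcl5-/- label. The transcript was therefore higher under the 3D knockout label than in 3D WT, against the label, and those samples are called by their label throughout. In the rescue table Cxcl5 was at 64.2 and 67.7 CPM in WT and at 36.6 and 40.2 CPM in Cxcl5-/-, which goes with the label. An RNA count does not show the edited sequence. The study checked the knockout at the protein level, by immunoblot for CXCL5 in 3D WT and Cxcl5-/- cells, not in these libraries. Myc was at 49.3 and 46 CPM in rescue WT, at 22.3 and 20 CPM in Cxcl5-/- and at 548.1, 524.9 and 396.6 CPM in MycOE Cxcl5-/-. Hif1a was at 303.5 and 323.8 CPM in rescue WT and at 143.9 and 133.4 CPM in rescue Cxcl5-/-. It was at 258.3, 295.6 and 242.8 CPM in Hif1aOE Cxcl5-/- and at 240.9, 270.9 and 262.3 CPM in MycOE Cxcl5-/- (Myc over Hif1a line −0.04, SE 0.09, edgeR adjusted p = 0.826). A rise over Cxcl5-/- was thus seen in both lines, but every sample of both lay below both WT samples. Against WT the log2 change was −0.24 in Hif1aOE Cxcl5-/- (SE 0.10, edgeR adjusted p = 0.0999) and −0.28 in MycOE Cxcl5-/- (SE 0.10, edgeR adjusted p = 0.0488).

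Some libraries stood apart. Both rescue WT libraries had at least 10 counts on 27353 to 27506 genes, against 19732 to 21560 in the other 8 rescue libraries, and replicate 1 of the libraries labelled 3D Cxcl5-/- had 69.3% of its counts on protein-coding genes. Scaling factors were 0.819 to 0.912 in 3D WT and 1.01 to 1.22 in the libraries labelled 3D Cxcl5-/-. In the rescue table the protein-coding share was 78.6 to 78.8% in WT, 77.9 to 79.4% in Cxcl5-/-, 70.1 to 74.8% in Hif1aOE Cxcl5-/- and 69.6 to 73.0% in MycOE Cxcl5-/-. Scaling factors there were 1.092 to 1.099, 1.123 to 1.14, 0.883 to 1.035 and 0.857 to 0.939 in that order. Of 8 epithelial and ductal markers, 4 to 7 had at least 10 counts in every sample of a group, and Cdh1 and Epcam, defining genes of epithelium, were at 3 counts or fewer in every 2D sample. The summed level of the 8 was 854 to 1100 CPM in 3D WT, 218 to 238 CPM under the 3D Cxcl5-/- label, 857 to 903 CPM in rescue WT, 288 to 303 CPM in rescue Cxcl5-/-, 707 to 838 CPM in Hif1aOE Cxcl5-/- and 268 to 313 CPM in MycOE Cxcl5-/-. The summed level of 6 fibroblast markers was 155.0 to 166.0 CPM in 3D WT and 395.0 to 452.0 CPM under the 3D Cxcl5-/- label, and 74.9 to 79.3 CPM in rescue WT, 458.0 to 464.0 CPM in rescue Cxcl5-/-, 133 to 173 CPM in Hif1aOE Cxcl5-/- and 312 to 343 CPM in MycOE Cxcl5-/-. The summed level of 8 macrophage markers was 28 to 77 CPM over all samples, with Adgre1 at 3 counts or fewer in 10 of the 11 groups. All 4 endothelial markers had at least 10 counts in both rescue WT libraries, at a summed 2.40 to 3.50 CPM, and 0 or 1 of them did in every sample of any other group. The part of these differences in the results below was not tested.

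E2F factors are the family best known for driving these genes at the G1/S border, so their promoters are shown before the values. RefSeq promoters (GRCm38.p6, 250 bases before to 50 after each start) were on hand for 37 of the 46 genes. The letters TTTCGCGC or TTTGGCGC, the core of an E2F site, were searched on both strands, and a match on one strand can overlap a match on the other. They stood in the promoters of 10 of the 37 genes (27.0%), which were Orc1, Cdt1, Mcm3, Mcm5, Mcm6, Mcm7, Pola1, Pole2, Rfc3 and Lig1, and in those of 251 of 27025 genes of the RefSeq table (0.929%). The E-box CACGTG, the best known Myc site and a palindrome, stood in 6 of the 37 (16.2%) and in 8.09% of all. A match is a description of letters and no match says nothing about a factor. The 160 bases before the start of 7 genes, chosen after their values were seen, are printed 5′ to 3′ with E2F matches in capitals. The first 5 fell from 2D to 3D and hold a match, and the last 2 are the origin recognition subunits whose means did not fall, without a match in this window. The contrast comes from this choice: of the 37 genes, all 10 with a match fell from 2D to 3D, but so did 22 of the 27 without one, Cdc6 and Fen1 among them, and 5 without one were not called.
Mcm5, chr8:75109349-75109508, plus strand: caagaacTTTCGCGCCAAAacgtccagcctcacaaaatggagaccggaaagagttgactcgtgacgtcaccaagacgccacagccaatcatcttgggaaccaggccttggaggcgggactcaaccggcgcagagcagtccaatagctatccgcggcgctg
Mcm6, chr1:128359706-128359865, minus strand: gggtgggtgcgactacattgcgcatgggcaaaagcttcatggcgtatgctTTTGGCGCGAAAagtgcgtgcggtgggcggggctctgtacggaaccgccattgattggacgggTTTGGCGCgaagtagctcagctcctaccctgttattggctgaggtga
Orc1, chr4:108579294-108579453, plus strand: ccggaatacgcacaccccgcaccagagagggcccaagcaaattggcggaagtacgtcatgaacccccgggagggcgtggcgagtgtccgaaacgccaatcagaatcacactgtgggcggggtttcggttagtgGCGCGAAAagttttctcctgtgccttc
Pola1, chrX:93632156-93632315, minus strand: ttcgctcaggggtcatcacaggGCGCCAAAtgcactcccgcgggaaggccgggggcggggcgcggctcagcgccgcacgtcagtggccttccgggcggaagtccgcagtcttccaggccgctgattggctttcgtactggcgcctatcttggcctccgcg
Rfc3, chr5:151651209-151651368, minus strand: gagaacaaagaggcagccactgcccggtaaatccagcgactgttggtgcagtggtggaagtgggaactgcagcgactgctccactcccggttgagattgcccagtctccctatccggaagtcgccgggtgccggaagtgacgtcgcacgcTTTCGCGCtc
Orc3, chr4:34614943-34615102, minus strand: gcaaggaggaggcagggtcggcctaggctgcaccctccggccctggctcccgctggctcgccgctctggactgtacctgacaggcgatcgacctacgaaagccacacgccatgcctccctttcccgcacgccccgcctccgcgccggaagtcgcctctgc
Orc5, chr5:22550339-22550498, minus strand: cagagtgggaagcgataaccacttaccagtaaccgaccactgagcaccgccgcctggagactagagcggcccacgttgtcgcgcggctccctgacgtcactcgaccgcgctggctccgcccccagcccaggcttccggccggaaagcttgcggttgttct

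Replication genes were broadly lower in 3D than in 2D culture of WT cells. Of the 46 genes, 41 fell, 0 rose and 5 were not called, with a median log2 fold change of −0.98, whereas the median over all 21367 genes tested was 0.00 and 22.0% of them were called lower and 22.2% higher. All 6 genes of the MCM2-7 ring, all 9 activators of the helicase, the 3 licensing genes, both lagging strand genes and both fork protection genes fell. The 5 exceptions were Orc3, Orc4, Orc5, Pold2 and Rpa3, so that the origin recognition complex was the role group with the most uncalled members, 3 of 6.

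Within the origin recognition complex, Orc1, the largest subunit, which is known to cycle, was at 22.5, 26.9 and 24.0 CPM in 2D WT and at 8.66, 8.59 and 9.09 CPM in 3D WT. Every 3D sample was below every 2D sample (log2 change −1.48, SE 0.11, edgeR adjusted p = 1.46e-07). Orc2 and Orc6 also fell, by 1.06 and by 1.31 on the log2 scale. Orc3, a core subunit, was at 86.3, 90.7 and 80.9 CPM in 2D WT and at 92.3, 95.2 and 102.4 CPM in 3D WT. Its 3D samples lay slightly above those in 2D, a difference that was not called (0.17, SE 0.08, edgeR adjusted p = 0.103) and turned to −0.05 when library totals took the place of TMM scaling. Orc5 was level, with a log2 fold change of 0.05 (SE 0.12, edgeR adjusted p = 0.74). It was at 21.7, 20.7 and 21.5 CPM in 2D WT and at 21.1, 22.8 and 22.4 CPM in 3D WT, with overlap. Orc4 was at 89.5, 98.9 and 93.2 CPM in 2D WT and at 64.1, 78.1 and 89.1 CPM in 3D WT, just without overlap, and its value was −0.28 (SE 0.11, edgeR adjusted p = 0.0599). Values of this complex thus ran from −1.48 to 0.17 between the same samples.

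Among the licensing factors, Cdc6, the ATPase that joins the origin recognition complex to load the ring, was at 51.8, 55.8 and 57.2 CPM in 2D WT and at 22.8, 22.0 and 20.7 CPM in 3D WT. It was thus 2.52-fold lower in 3D without overlap (log2 change −1.33, SE 0.08, edgeR adjusted p = 3.10e-08). Its partner Cdt1 fell by 0.89 and the inhibitor Gmnn by 1.25 on the log2 scale. In the MCM2-7 ring the falls lay between 0.80 for Mcm6 and 1.40 for Mcm5. Mcm5 was at 423.9, 390.9 and 414.2 CPM in 2D WT and at 174.2, 138.1 and 154.2 CPM in 3D WT, with a wide gap between the groups (SE of its log2 fold change 0.10, edgeR adjusted p = 1.13e-07). The 6 ring subunits thus fell together, each by a factor between 1.75 and 2.63.

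The helicase activators held the largest fall of the 46. Gins1, a GINS subunit, was at 27.3, 23.5 and 27.4 CPM in 2D WT and at 7.67, 8.71 and 6.47 CPM in 3D WT, a 3.42-fold difference (log2 change −1.78, SE 0.13, edgeR adjusted p = 1.80e-07). Its partners in the complex fell less, Gins3 by 1.08, Gins4 by 0.93 and Gins2 by 0.60 on the log2 scale. For Gins2, 67.3% of exon bases are overlapped by Gse1 on the other strand, and whether the counting used strand is not stated, so its counts are uncertain. Mcm10 fell by 1.38 and Dbf4 by 1.25, whereas the kinase subunit Cdc7 fell by 0.73 and Cdc45 by 0.77. Activators of the same step were thus spread over more than 1 log2 unit.

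Falls of the polymerase genes ran from 0.38 to 1.48, with Pold2 not called. Pola1, the catalytic subunit of polymerase α, was at 191.8, 202.4 and 203.4 CPM in 2D WT and at 65.5, 81.7 and 67.4 CPM in 3D WT (log2 change −1.48, SE 0.10, edgeR adjusted p = 8.51e-08). Its partners Pola2, Prim1 and Prim2 fell by 0.92, 1.08 and 0.90. Pold1 and Pold3, catalytic and accessory subunits of polymerase δ, fell by 0.53 and 0.56, and Pole and Pole2, the catalytic and an accessory subunit of polymerase ε, by 0.86 and 0.38. Pold2, another polymerase δ subunit, was at 57.9, 52.1 and 61.5 CPM in 2D WT and at 55.6, 46.7 and 50.6 CPM in 3D WT, so that the groups overlapped (−0.17, SE 0.11, edgeR adjusted p = 0.264).

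In the group of RPA, clamp and loader, Pcna, the sliding clamp, was at 421.5, 395.8 and 443.2 CPM in 2D WT and at 187.6, 184.9 and 194.2 CPM in 3D WT (log2 change −1.15, SE 0.10, edgeR adjusted p = 7.83e-07). Rpa1 and Rpa2, which coat single-stranded DNA, both fell by 1.04. Rpa3, the small subunit of the same trimer, was at 40.2, 33.6 and 38.7 CPM in 2D WT and at 37.6, 28.2 and 35 CPM in 3D WT, with overlapping groups (−0.16, SE 0.16, edgeR adjusted p = 0.451). The 5 loader subunits Rfc1 to Rfc5 all fell, by 0.45 to 0.95. On the lagging strand, Fen1 was at 157.5, 162.1 and 185.8 CPM in 2D WT and at 61.7, 53.4 and 62.3 CPM in 3D WT (−1.51, SE 0.11, edgeR adjusted p = 1.23e-07), but 84.2% of its exon bases are overlapped by Tmem258 and Gm10143 on the other strand. Lig1, with its own ligase reaction downstream, fell by 1.1. Timeless, which with Tipin steadies the stalled fork, was at 37.8, 29.5 and 31.4 CPM in 2D WT and at 13.5, 11.3 and 13.3 CPM in 3D WT, a fall of 1.37 on the log2 scale without overlap, and Tipin fell by 1.1.

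Leaving out each sample in turn kept 41 or 42 of the 46 genes called lower in 3D WT, and the 4 scalings tried shared all 41. Of the 46, Orc3 and Orc5 were the genes whose sign depended on the scaling. With DESeq2 or with DESeq2 size factors, 1 gene was called higher.

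**Figure D1:**
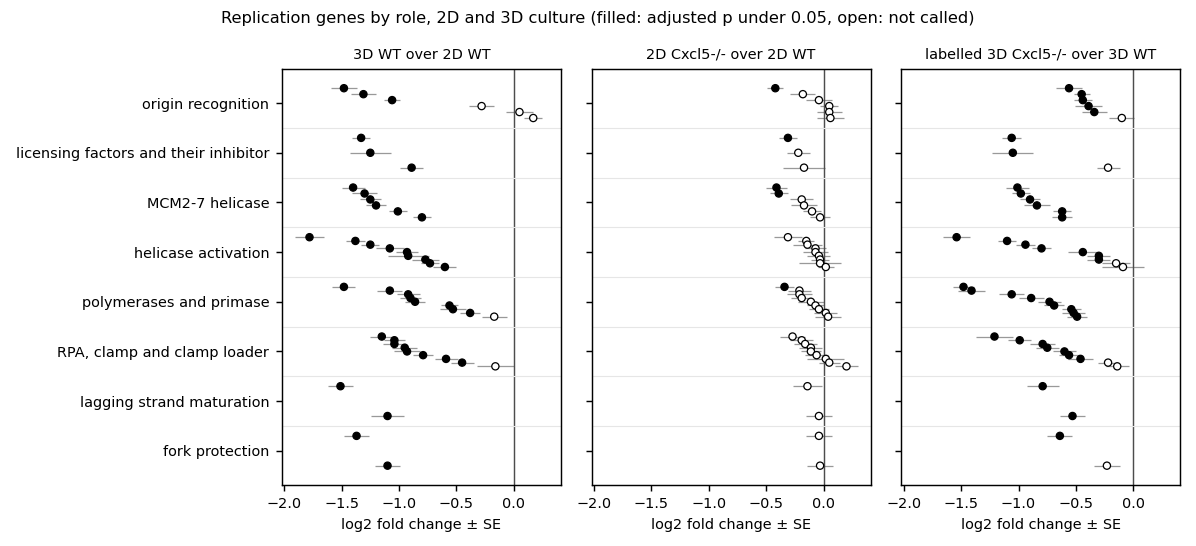
Log2 fold change with SE (x axis, the same scale in each panel) of each of the 46 genes, grouped by role (y axis), for 3D over 2D in WT, for Cxcl5-/- over WT in 2D, and for the libraries labelled 3D Cxcl5-/- over 3D WT (n = 3 in each group). Filled points passed an adjusted p under 0.05 in edgeR: 41, 5 and 39 genes were called lower, and the points of the middle panel lie close to 0.

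Cxcl5 deletion in 2D culture left most replication genes near their WT level. Of the 46, 5 fell, 0 rose and 41 were not called, against 3.17% of all genes called lower and 3.86% higher, and the median log2 fold change was −0.10. The 5 were Orc2, Cdc6, Mcm3, Mcm6 and Prim2. Orc2 was at 132.4, 131.4 and 137.5 CPM in 2D WT and at 105.2, 97.4 and 98.1 CPM in 2D Cxcl5-/-, without overlap (log2 change −0.42, SE 0.07, edgeR adjusted p = 0.00169). It is overlapped by Nif3l1 over 29.8% of its exon bases. Mcm3 fell by 0.41 and Mcm6 by 0.39. These calls rested on few samples, since 1 to 5 genes were called when single samples were left out. The count was 1 without replicate 3 of 2D WT or without replicate 2 or 3 of 2D Cxcl5-/-, 2 without replicate 1 of 2D WT, and 3 without replicate 1 of 2D Cxcl5-/- or replicate 3 of 3D WT.

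In 3D culture the libraries labelled Cxcl5-/- had lower replication genes than 3D WT. Of the 46 genes, 39 fell, 0 rose and 7 were not called, with 25.3% of all genes called lower and 19.7% higher. The median log2 fold change was −0.62 for the 46 and −0.04 for all genes. The largest falls were Cdc45, Pole2, Pold2 and Rpa3, of which Pold2 and Rpa3 had not differed beyond their spread between 2D and 3D in WT and Pole2 had fallen there by only 0.38.

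Cdc45, which ties MCM2-7 and GINS into the moving helicase, was at 58.7, 50 and 48.4 CPM in 3D WT and at 20.6, 14.5 and 18.7 CPM under the 3D Cxcl5-/- label. All 3 labelled libraries lay below all 3 WT libraries (log2 change −1.54, SE 0.12, edgeR adjusted p = 3.05e-07). In 2D the same gene was at 87.0, 88.0 and 92.1 CPM in WT and at 77.5, 72.4 and 65.1 CPM in Cxcl5-/-, a difference that was not called (edgeR adjusted p = 0.151). Cdc7 fell by 1.1, Mcm10 by 0.94 and Dbf4 by 0.80. Ticrr and Gins3 were not called, and Gins1, which had fallen most between 2D and 3D, fell by 0.44.

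Pole2 was at 24.4, 26.2 and 23.9 CPM in 3D WT and at 9.05, 8.11 and 9.60 CPM under the 3D Cxcl5-/- label, a 2.78-fold difference without overlap (log2 change −1.48, SE 0.09, edgeR adjusted p = 4.97e-08). Pold2 was at 55.6, 46.7 and 50.6 CPM in 3D WT against 21.2, 16.2 and 20.1 CPM in the labelled libraries (−1.41, SE 0.12, edgeR adjusted p = 5.25e-07). All 9 genes of the polymerase and primase group fell, the smallest being Prim2 at −0.49. Rpa3 was at 37.6, 28.2 and 35 CPM in 3D WT against 18.6, 11.4 and 13.4 CPM in the labelled libraries (−1.21, SE 0.16, edgeR adjusted p = 3.85e-05), and Rpa2 fell by 0.99. Rpa1, in the same trimer, was not called (−0.22, SE 0.09, edgeR adjusted p = 0.0536).

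Among the licensing genes, Cdc6 was at 11.2, 9.65 and 10.6 CPM in the labelled libraries, 2.08-fold below 3D WT (log2 change −1.06, SE 0.08, edgeR adjusted p = 3.79e-07). Gmnn was at 24.2, 25.5 and 16.9 CPM in 3D WT against 14.3, 7.99 and 9.87 CPM in the labelled libraries (−1.05, SE 0.18, edgeR adjusted p = 0.000400). Cdt1 was at 19.5, 17.4 and 20 CPM and at 15.6, 17.5 and 15.8 CPM, so that the licensing factor overlapped between the groups (−0.22, SE 0.10, edgeR adjusted p = 0.108) while its inhibitor did not. All 6 MCM2-7 genes fell, from Mcm5 (−1.01, SE 0.10, edgeR adjusted p = 2.90e-06) to Mcm6 and Mcm7 (both −0.62). In the origin recognition complex 5 of 6 fell, by 0.34 to 0.56, with Orc1, at 5.68, 6.10 and 6.10 CPM in the labelled libraries, at the upper end (SE 0.11, edgeR adjusted p = 0.00101) and Orc4 not called.

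Lig1 was at 50.1, 54.8 and 44.3 CPM in 3D WT against 21.5, 30.1 and 34.6 CPM in the labelled libraries, a fall of 0.79 without overlap. Tipin was at 42.1, 45.0 and 38.7 CPM against 31.7, 23.4 and 25.8 CPM, a fall of 0.64, also without overlap, and Fen1 fell by 0.53. By contrast, Timeless was not called (−0.23, SE 0.11, edgeR adjusted p = 0.109), nor was Rfc1, the large subunit of the loader (−0.14, SE 0.10, edgeR adjusted p = 0.283). Timeless was at 13.5, 11.3 and 13.3 CPM against 11.0, 11.6 and 9.96 CPM and Rfc1 at 58.3, 63.4 and 49.7 CPM against 47.3, 48.8 and 59.1 CPM, with overlap in both. Orc4 was at 64.1, 78.1 and 89.1 CPM against 81.1, 66.2 and 68.3 CPM, Gins3 at 10.5, 9.39 and 9.86 CPM against 9.94, 7.50 and 9.29 CPM, and Ticrr at 9.46, 9.92 and 10.4 CPM against 6.51, 10.9 and 10.6 CPM. These too overlapped. Rpa1 did not, at 87.6, 78.5 and 78 CPM against 69.0, 64.6 and 75.7 CPM.

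The 3D genotype comparison depended on the scaling. With library totals 23 of the 46 genes were called lower and 1 higher, and with protein-coding totals, added after the data were seen, 19 lower and 1 higher. Of all genes, 11.4% were called lower and 35.9% higher with library totals, and 10.2% and 38.7% with protein-coding totals. Those scalings moved the median over all genes to 0.35 and 0.39 and that of the 46 to −0.24 and −0.19, so that the 46 stayed 0.59 and 0.58 below all genes, against 0.58 with TMM. The 19 genes called lower under all 4 scalings were Cdc6, Gmnn, Mcm2, Mcm3, Mcm4, Mcm5, Mcm10, Cdc7, Dbf4, Cdc45, Prim1, Pold1, Pold2, Pole, Pole2, Rpa2, Rpa3, Pcna and Rfc4. The log2 fold changes of the 7 uncalled genes turned positive under library totals and protein-coding totals, and those of the called genes Orc5, Orc6, Gins2 and Gins4 turned sign under at least 1 other setting, reaching 0.04, 0.09, 0.14 and 0.12. Without replicate 1 of the labelled libraries, which stood apart, the same 39 genes were called lower. With each sample left out in turn, 35 to 40 genes were called lower and the median ran from −0.69 to −0.52.

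**Figure D2:**
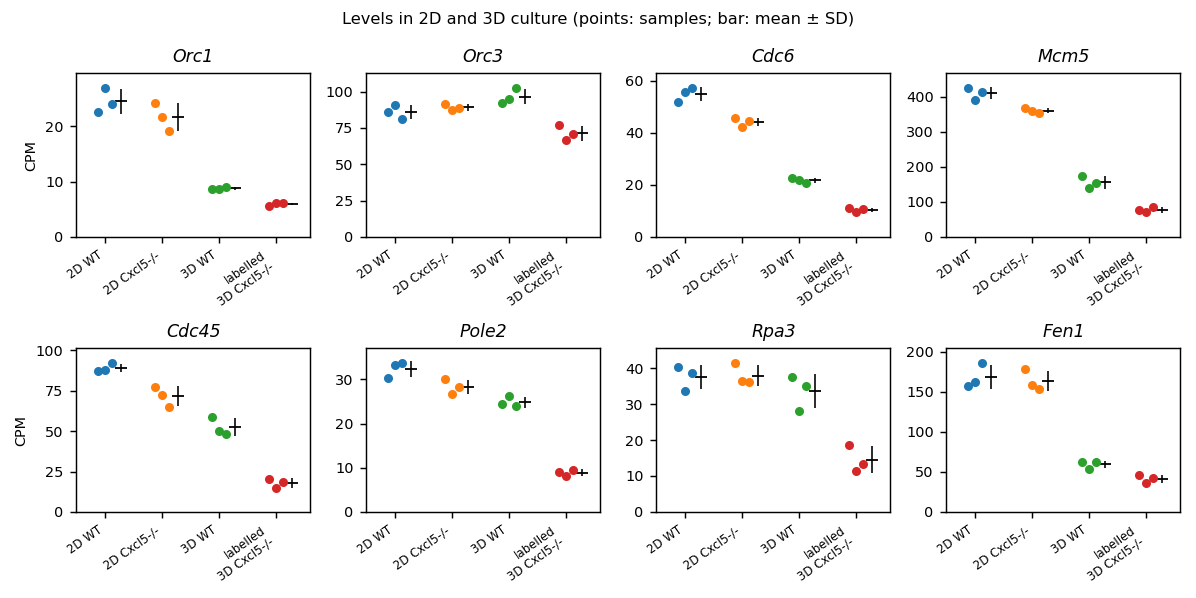
CPM of 8 genes (y axis, from 0) in each sample of 2D WT, 2D Cxcl5-/-, 3D WT and the libraries labelled 3D Cxcl5-/- (x axis, n = 3 each), with the mean and SD beside the points. Orc1, Cdc6, Mcm5 and Fen1 dropped mainly from 2D to 3D, Pole2 and Rpa3 mainly between 3D WT and the labelled libraries, and Orc3 stayed between 66.4 and 102.4 CPM in all 12 samples.

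The test of the difference itself, the genotype effect in 3D minus that in 2D, called 29 of the 46 genes more negative in 3D and 0 more positive (16.1% of all genes called more negative and 11.1% more positive). The median difference was −0.53 log2 units for the 46 and −0.05 for all genes. By role, 8 of 9 polymerase and primase genes, 5 of 6 MCM2-7 genes and 1 of 6 origin recognition genes were called. Pole2 had the largest difference (−1.28, SE 0.13, edgeR adjusted p = 1.44e-05), then Cdc45 and Rpa3 (both −1.23) and Pold2 (−1.20). The lowest adjusted p was that of Cdc7 (−1.12, SE 0.11, edgeR adjusted p = 9.26e-06), which was at 55.6, 56.9 and 59.2 CPM in 2D WT and at 60.9, 55.4 and 57.6 CPM in 2D Cxcl5-/- but at 35.9, 32.3 and 35.1 CPM in 3D WT against 16.8, 15.3 and 16.2 CPM in the labelled libraries. Under library totals 13 genes were called more negative, and under protein-coding totals 10, with 2 more positive. Of all genes, 6.36% were then called more negative and 21.5% more positive under library totals, and 5.39% and 25.9% under protein-coding totals. The median of the 46 stayed 0.48 below that of all genes under both, as with TMM. The 10 called under all 4 scalings were Mcm4, Mcm5, Mcm10, Cdc7, Dbf4, Cdc45, Pold1, Pold2, Pole2 and Rpa3.

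Comparing the labelled libraries with 2D Cxcl5-/-, all 46 genes were lower in 3D (28.2% of all genes called lower and 28.7% higher), at a median log2 fold change of −1.59, that of all genes being 0.11. Values ran from −0.32 for Orc3 to −2.21 for Mcm5. Library totals left 45 and protein-coding totals 43 of them called. These 4 groups share samples between the comparisons, so their values stand side by side only.

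Levels between genes were compared per kilobase of the longest principal transcript. Counts were per gene, so ranks and ranges between genes depend on the length taken. All exon bases came to 6956 for Mcm2, 6088 for Orc3 and 6166 for Orc5, against 3371, 2300 and 2103 in the transcripts taken. In 2D WT the highest of the 46 was Pcna at 277.0 CPM per kb and the lowest Ticrr, which helps load Cdc45, at 2.61 CPM per kb. The 6 MCM2-7 subunits, which stand in equal numbers in the ring, lay between 64.7 ± 5.04 CPM per kb for Mcm2 and 121.0 ± 5.02 for Mcm5 in 2D WT (SD, n = 3), a 1.87-fold range. In 3D WT the range was 2.52-fold, from 26.2 ± 4.09 for Mcm2 to 66.0 ± 6.25 for Mcm6. Mcm2 was the lowest of the 6 in all 11 groups, and Mcm6 was the highest in 7 of them. Mcm5 stood first in both 2D groups, and Mcm7, whose transcript holds the miRNAs Mir25 and Mir93, in both overexpressing groups.

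At the transcript lengths taken, subunits of the origin recognition complex were far less even. Orc1 was the lowest of the 6 in every group, at 8.13 ± 0.738 CPM per kb in 2D WT and 2.91 ± 0.0895 in 3D WT. Orc6, the smallest subunit, was the highest in 2D WT at 68.7 ± 1.36 CPM per kb, but in 3D WT Orc3 was, at 42.0 ± 2.26 against 27.8 ± 1.26 for Orc6. The gap between the highest and the lowest subunit was 8.45-fold in 2D WT, 14.43-fold in 3D WT and 15.66-fold in the libraries labelled 3D Cxcl5-/-. In the rescue table it was 11.9-fold in WT and 15.67-fold in Cxcl5-/-.

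The rescue samples gave the genotype comparison in 3D again, in libraries that share no sample with those above. Cxcl5-/- lay below WT for 37 of the 46 genes, above it for 1 and was not called for 8 (24.3% of all 28730 genes tested called lower and 17.6% higher). The median log2 fold change was −0.86 for the 46 and −0.30 for all genes, with the difference in detected genes between the WT and the other libraries standing beside it. When tests were kept to genes with at least 10 counts in every sample, 38 of the 46 were called lower, their median was −0.94 and that of all genes −0.01. Without the filter 33 were called lower (9.69% of all genes), with medians of −0.85 for the 46 and −1.18 for all genes. With DESeq2's Wald test 38 were called lower (16.7% of all genes), with medians of −0.97 and −1.31. Which median was the lower thus depended on the genes tested. Under all 4 scalings 34 genes were called lower.

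Pole2 fell most, from 19.0 and 23.8 CPM in WT to 5.12 and 4.73 CPM in Cxcl5-/- (log2 change −2.12, SE 0.16, edgeR adjusted p = 2.08e-06). Gmnn was at 27.9 and 25.4 CPM in WT and at 7.26 and 7.24 CPM in Cxcl5-/- (−1.88, SE 0.19, edgeR adjusted p = 1.66e-05), and Cdc45 at 42.8 and 39.5 CPM and at 13.1 and 12.6 CPM (−1.68, SE 0.10, edgeR adjusted p = 3.25e-07). In each, both knockout libraries lay well under both WT libraries. All 6 MCM2-7 genes fell, by 0.82 to 1.24, as did all 9 polymerase and primase genes. Fen1 fell by 1.11, Lig1 by 0.70, Tipin by 1.24 and Timeless by 0.43.

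The genes not called lower were Orc3, Orc4, Orc5, Orc6, Cdt1, Gins2, Rfc1 and Rfc3, which were not called, and Gins3, which rose. An uncalled gene is not shown to be unchanged. Orc6 was at 31.7 and 35.3 CPM in WT and at 29.1 and 26.3 CPM in Cxcl5-/-. Orc4 went the other way, from 72.0 and 69.7 CPM to 79.5 and 78.8 CPM. Cdt1 was at 13.4 and 14.6 CPM in WT and at 14.5 and 14.3 CPM in Cxcl5-/-, level within its spread (log2 change 0.04, SE 0.10, edgeR adjusted p = 0.741). Gins3 was at 7.74 and 7.91 CPM in WT and at 11.2 and 10.9 CPM in Cxcl5-/- (0.50, SE 0.17, edgeR adjusted p = 0.0339), a call lost with DESeq2, with DESeq2 size factors, without the filter and without either WT sample or replicate 2 of Cxcl5-/-. Gins2 was at 16.3 and 31.5 CPM in the Cxcl5-/- libraries, too far apart for a direction. Its log2 fold change was −0.08 to 0.85 when single samples were left out.

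Set side by side, 34 genes were called lower in both genotype comparisons in 3D, which is 87.2% of the 39 in the first and 91.9% of the 37 in the second. Both lists hold most of the 46 genes, so that a large overlap follows from their size alone. The share of all genes called lower in both comparisons was not computed. Over the 46 genes the log2 fold changes had a Pearson r of 0.77 and a Spearman rho of 0.76, a description across genes of the same line and the same labelled genotypes. Orc4, Cdt1 and Rfc1 were called lower in neither. Ticrr, Rpa1 and Timeless were called lower in the rescue samples and not in the other table, and Orc3, Orc5, Orc6, Gins2 and Rfc3 the other way round, with no test of that difference.

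The ratio of Cdt1 to Gmnn, licensing factor to inhibitor, was followed per kilobase as a log2 value after these values were seen. It was −2.02 and −1.76 in rescue WT and 0.04 and 0.03 in rescue Cxcl5-/-, a difference of 1.92 (exact two-sided permutation p = 0.333, the smallest that 2 against 2 samples allow). In the other table it was −1.27, −1.51 and −0.72 in 3D WT and −0.83, 0.17 and −0.28 in the labelled libraries, which overlap (difference 0.85, exact two-sided permutation p = 0.2 where the smallest possible is 0.1). In 2D it was −1.55 ± 0.09 in WT and −1.61 ± 0.23 in Cxcl5-/- (SD, n = 3). Hif1aOE Cxcl5-/- stood at −1.15 ± 0.35 and MycOE Cxcl5-/- at −0.72 ± 0.04 (SD, n = 3).

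With the stabilized Hif1a overexpressed in Cxcl5-/- cells, 39 of the 46 genes rose above Cxcl5-/-, 0 fell and 7 were not called (20.6% of all genes called higher and 15.0% lower). The median log2 fold change was 0.92, against 0.16 for all genes. Gmnn rose most, from 7.26 and 7.24 CPM to 28.4, 35 and 21.6 CPM (log2 change 1.97, SE 0.18, edgeR adjusted p = 8.43e-06). Rpa3 rose from 10.9 and 12.6 CPM to 39.3, 54.0 and 35.3 CPM (1.86, SE 0.17, edgeR adjusted p = 8.18e-06), and Fen1 from 21.5 and 22.5 CPM to 70.0, 75.4 and 66.9 CPM (1.68, SE 0.09, edgeR adjusted p = 3.67e-07). No overexpressing sample overlapped the knockout samples in these genes.

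In the other role groups the largest rises with Hif1a were Mcm5 (1.57, SE 0.09, edgeR adjusted p = 4.52e-07), Prim1 (1.52, SE 0.13, edgeR adjusted p = 5.64e-06), Cdc45 (1.47, SE 0.09, edgeR adjusted p = 6.51e-07) and Tipin (1.41, SE 0.11, edgeR adjusted p = 3.67e-06). Orc6 rose by 0.94 (SE 0.14, edgeR adjusted p = 0.000261). It had not been called between rescue Cxcl5-/- and rescue WT, but was called lower under the 3D Cxcl5-/- label. The 7 uncalled genes were Orc1, Orc3, Orc4, Orc5, Gins2, Rpa1 and Rfc1, 4 of them in the origin recognition complex. The adjusted p of Orc1 was 0.0565, of Rpa1 0.0575 and of Orc4, whose sign was negative, 0.0675 by edgeR. Orc4 was at 79.5 and 78.8 CPM in Cxcl5-/- and at 70.3, 70.2 and 63.1 CPM with Hif1a, and Rfc1 at 64.4 and 54.9 CPM and at 63.1, 59.8 and 61 CPM. Orc3 was at 77.3 and 72.7 CPM and at 76.5, 72.1 and 71.3 CPM, so that Orc3 and Rfc1 overlapped and Orc4 was lower in every Hif1a sample. With DESeq2, DESeq2 size factors, library totals, protein-coding totals or a minimum of 10 counts in each sample, 1 gene was called lower.

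With Myc overexpressed, 41 genes rose above Cxcl5-/-, 0 fell and 5 were not called (21.6% of all genes called higher and 18.0% lower). The median log2 fold change was 1.15 for the 46 and 0.11 for all genes. Mcm5 rose most, from 39.6 and 37.8 CPM to 174.3, 167.6 and 162.9 CPM, 4.35-fold (log2 change 2.12, SE 0.09, edgeR adjusted p = 4.99e-08). Rfc4, a loader subunit, rose from 7.51 and 7.65 CPM to 32.4, 29.8 and 26.9 CPM (1.97, SE 0.17, edgeR adjusted p = 3.52e-06), and Gins1 from 3.84 and 3.90 CPM to 14.1, 13.4 and 13.9 CPM (1.83, SE 0.17, edgeR adjusted p = 7.91e-06). The samples of each group were close together and the groups far apart.

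Pole2 rose by a log2 value of 1.81 (SE 0.15, edgeR adjusted p = 2.95e-06), Gmnn by 1.87, Fen1 by 1.62 and Tipin by 1.53. All genes of the licensing, MCM2-7, polymerase, lagging strand and fork protection groups rose, and 8 of 9 in the group of RPA, clamp and loader. Orc3, Orc4, Gins2, Gins3 and Rfc1 were not called, with adjusted p between 0.0578 for Gins2 and 0.704 for Orc4 by edgeR. The log2 fold changes of Orc3, Orc4, Gins3 and Rfc1 were between 0.05 and 0.14 and turned negative under library totals. Orc3, Orc4 and Rfc1 were thus uncalled in both overexpressing lines. The comparisons share the Cxcl5-/- samples.

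**Figure D3:**
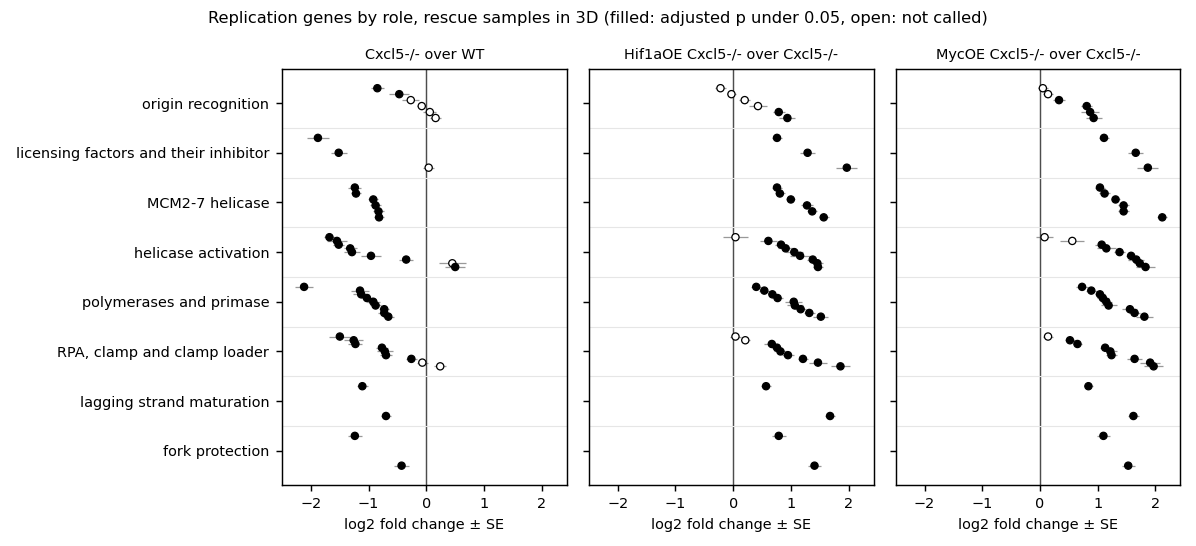
Log2 fold change with SE (x axis, the same scale in each panel) of each of the 46 genes by role (y axis) in the rescue table, for Cxcl5-/- (n = 2) over WT (n = 2), and for Hif1aOE Cxcl5-/- and MycOE Cxcl5-/- (n = 3 each) over Cxcl5-/-. Filled points passed an adjusted p under 0.05: 37 genes were lower and 1 higher in the first panel, 39 higher in the second and 41 higher in the third, and origin recognition holds 4, 4 and 2 of the open points.

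Direct comparison of the lines gave 21 genes higher with Myc than with Hif1a, 1 lower and 24 not called (9.54% of all genes called higher and 9.74% lower), with a median log2 difference of 0.25 against −0.01 for all genes. Rpa2 differed most, at 17.8, 20.5 and 15.7 CPM with Hif1a and at 37.1, 37.5 and 31.4 CPM with Myc (0.97, SE 0.11, edgeR adjusted p = 0.000111). Mcm10 and Pole2 both differed by 0.76 and Gins1 by 0.68. The gene that was lower with Myc was Gins3, at 15.9, 20.2 and 14.6 CPM with Hif1a and at 10.4, 12.8 and 11.8 CPM with Myc (−0.53, SE 0.13, edgeR adjusted p = 0.0154). Under library totals the counts were 10 higher and 2 lower, and the 10 higher under all 4 scalings were Mcm5, Mcm10, Gins1, Pola1, Prim2, Pole2, Rpa1, Rpa2, Pcna and Rfc4.

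Against WT, Hif1aOE Cxcl5-/- had 14 genes higher and 4 lower (13.9% and 10.3% of all genes), and the median log2 fold change was 0.07. The 4 lower genes were Pole2, Pcna, Mcm10 and Prim2. Pole2 was at 9.64, 11.8 and 9.26 CPM, under both WT samples (−1.07, SE 0.13, edgeR adjusted p = 0.000311), although it had risen over Cxcl5-/-. Gins3 was 2.16-fold above WT (1.11, SE 0.15, edgeR adjusted p = 0.000562) and Cdt1 1.75-fold above (0.80, SE 0.09, edgeR adjusted p = 0.000133). The balance of this comparison turned with the scaling, with 8 higher and 11 lower under DESeq2 size factors, and without either WT sample it was 7 higher and 1 lower. The 12 genes called under all 4 scalings were those 4 lower genes and Orc6, Cdt1, Mcm7, Gins3, Gins4, Rfc2, Rfc3 and Fen1, which were higher.

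MycOE Cxcl5-/- had 23 genes above WT and 1 below (17.1% and 14.7% of all genes), with a median of 0.38 for the 46 and −0.17 for all genes. The difference in detected genes between the WT and the other libraries stands beside this too. With tests kept to genes with at least 10 counts in every sample, the medians were 0.22 and 0.01. There 17 genes were called higher and 2 lower (22.2% and 20.8% of all genes). Cdt1 was highest against WT, at 32.1, 29.9 and 31.2 CPM (log2 change 1.15, SE 0.09, edgeR adjusted p = 4.73e-06), and Rpa2 and Mcm5 were above WT by 0.91 and 0.90. Cdc45 was the 1 gene below, at 33.7, 32.6 and 33.7 CPM against 42.8 and 39.5 CPM (−0.30, SE 0.08, edgeR adjusted p = 0.0180). The higher count was 14 without either WT sample and 9 under library totals, and the Cdc45 call was lost without either WT sample. Of the 37 genes that were lower in Cxcl5-/- than in WT, 35 rose with Hif1a, and of these 22 were not called against WT, 9 were above it and 4 below. With Myc all 37 rose, and 20 were not called against WT, 16 were above and 1 below. The 37 were chosen by the same Cxcl5-/- samples over which the rises were measured, which by itself favours a rise. The share that rose among all genes lower in Cxcl5-/- was not computed. An uncalled difference from WT does not show that the levels were equal.

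**Figure D4:**
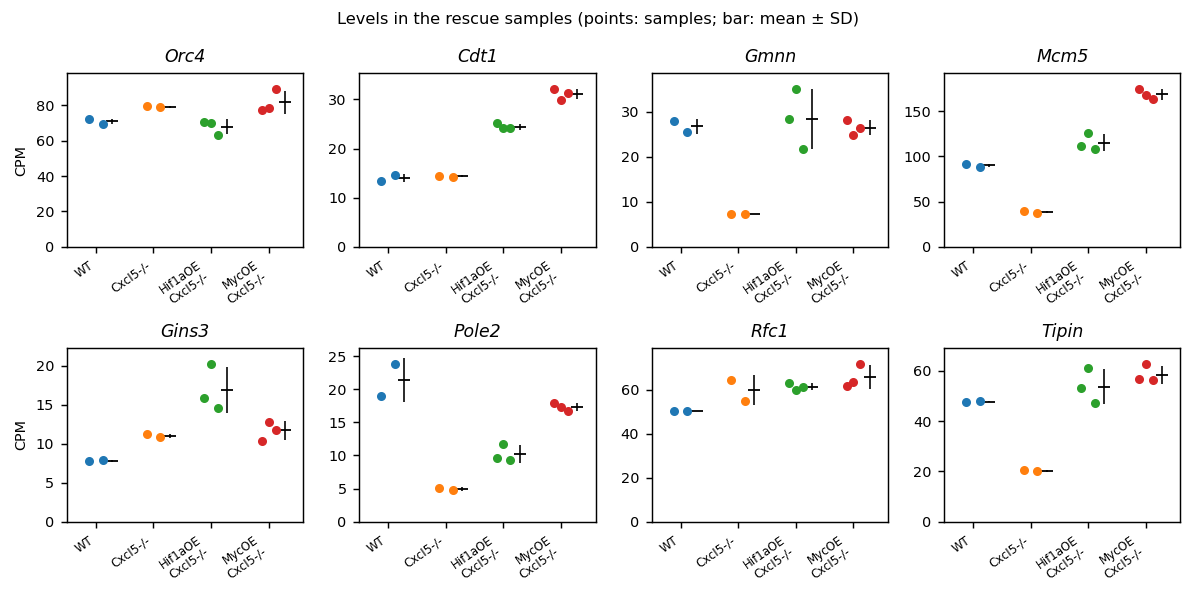
CPM of 8 genes (y axis, from 0) in each rescue sample of WT, Cxcl5-/-, Hif1aOE Cxcl5-/- and MycOE Cxcl5-/- (x axis, n = 2, 2, 3 and 3), with the mean and SD beside the points. Gmnn, Mcm5, Pole2 and Tipin are low in Cxcl5-/- and higher in both overexpressing groups, Pole2 with Hif1a staying at 9.26 to 11.8 CPM, while Orc4 and Rfc1 change little and Cdt1 is low in both WT and Cxcl5-/-.

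Conditioned medium moved none of the 46 genes past the threshold. In M1-CM against Ctrl, M1-CM against M0-CM and M0-CM against Ctrl, 0 genes were called by edgeR in either direction, also at an unadjusted p under 0.05 and by DESeq2's Wald test, whereas 3, 3 and 0 of the 19207 genes tested were called higher (0.0156%, 0.0156% and 0%) and 4.70%, 2.59% and 2.96% of all genes tested had an unadjusted p under 0.05. Medians of the log2 fold changes were −0.19, −0.13 and −0.08. Samples of the same medium lay apart. Ctrl replicate 2 was the highest of its group in 43 of the 46 genes, with a median log2 ratio to the Ctrl mean of 0.30, and M1-CM replicate 2 was the lowest of its group in 40, with a median of −0.61.

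Mcm5 was at 117.5, 223.3 and 154.3 CPM in Ctrl, at 135.2, 177.1 and 143.7 CPM with M0-CM and at 158.4, 81.6 and 153.7 CPM with M1-CM. Its groups overlapped throughout. Groups did not overlap for Pola2 and Pold3 in M1-CM against Ctrl, for Orc1, Orc3 and Pold3 in M1-CM against M0-CM, and for Cdt1 in M0-CM against Ctrl, with log2 fold changes between −0.30 and 0.30 that were not called. With 3 samples a group, some of 46 genes would separate without any effect. The share of all genes without overlap was not computed, so these genes are no evidence of an effect of the medium. Ticrr was 1 of 4 genes that were highest of their group in M1-CM replicate 2, at 21.3 CPM against 8.54 and 10.3 CPM in the other M1-CM samples. Without M1-CM replicate 2 the median against Ctrl was −0.07, and without Ctrl replicate 2 it was −0.01, with 23 genes on each side of 0. The median coefficient of variation of the 46 genes was 21.5% in Ctrl and 22.4% with M1-CM, against 3.89% to 11.2% in the other 9 groups.

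**Figure D5:**
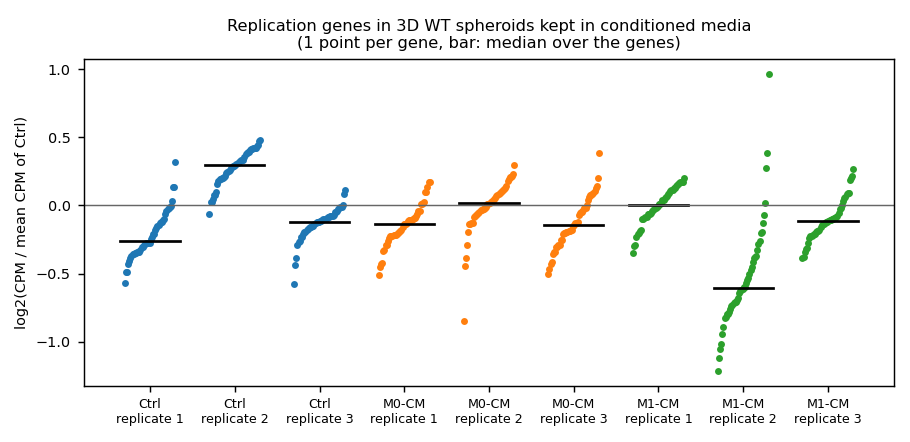
Log2 ratio of each gene's CPM to its mean over the 3 Ctrl samples (y axis) for the 46 genes in each of the 9 conditioned medium samples (x axis), with the median over the genes as a bar. Ctrl replicate 2 lies above 0 at a median of 0.30 and M1-CM replicate 2 below 0 at −0.61, while the other 7 samples have medians between −0.26 and 0.02.

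Genes of neighbouring steps, taken from lists that were drawn up by role, were read in the same fits. Of 29 other replication factors (accessory polymerase subunits, other clamp loaders, chromatin assembly and nucleotide supply among them), 23 fell and 2 rose from 2D to 3D in WT, 26 fell and 0 rose in the libraries labelled 3D Cxcl5-/-, and 24 fell and 1 rose in rescue Cxcl5-/-, with 25 and 28 higher and 1 lower in each overexpressing line. Of all genes, 22.0%, 25.3% and 24.3% were called lower in the first 3 comparisons and 22.2%, 19.7% and 17.6% higher. In the Hif1a and Myc lines 20.6% and 21.6% of all genes were called higher and 15.0% and 18.0% lower. Pold4, the small subunit of polymerase δ, rose from 12.1 ± 0.916 CPM in 2D WT to 48.7 ± 3.91 CPM in 3D WT (SD, n = 3, log2 change 2.01, SE 0.15, edgeR adjusted p = 1.90e-07), whereas Pold1 and Pold3 fell and Pold2 was not called. It fell to 18.2 ± 4.86 CPM in the labelled libraries (−1.42, SE 0.15, edgeR adjusted p = 5.01e-06). Dna2, a nuclease that trims long flaps, fell by 1.72 and Clspn, a checkpoint mediator at the fork, by 1.63 from 2D to 3D.

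All 20 mitotic genes fell in the same comparisons, with medians of −1.07 from 2D to 3D, −1.04 in the labelled libraries and −1.60 in rescue Cxcl5-/-, and all 20 rose with Hif1a (median 1.44) and with Myc (1.73). In both 3D genotype comparisons and in both overexpressing lines these medians were further from 0 than those of the 46 replication genes. Cdc20, an activator of the anaphase-promoting complex, rose by 2.99 with Myc and by 2.03 with Hif1a. Of 20 E2F, RB and G1/S control genes, 12 fell and 4 rose from 2D to 3D in WT (22.0% of all genes called lower and 22.2% higher). The rises were thus near the share of all genes. Cdkn1a, an inhibitor of cyclin-dependent kinases, rose from 10.2 ± 1.33 to 67.8 ± 1.74 CPM from 2D to 3D in WT (SD, n = 3) and was at 3.92 ± 2.51 CPM in the labelled libraries (log2 change −4.11, SE 0.40, edgeR adjusted p = 2.24e-06), lower together with the replication genes. Ccna2, the S phase cyclin, fell by 1.52 in the labelled libraries and by 1.77 in rescue Cxcl5-/- and rose by 1.79 with Hif1a and by 1.80 with Myc.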

How the data were processed

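RNA of 31 samples was sequenced by the authors as paired reads from stranded total RNA libraries, aligned to GRCm38 with HISAT2 and counted per gene with StringTie. The authors deposited whole-number counts in 3 tables. The annotation release, the way StringTie output became counts and whether counting used strand are not given in the sources used here. Groups came from the sample labels. The 46 genes and all lists were chosen with earlier results of these data known. Any of the 46 may be named. The rule asks for values per sample for the member of each role with the largest change, for uncalled members and for those against the median sign. In the overexpression comparisons some of these are given by their fold change alone. Promoters shown were picked after values were seen.

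Each table was fitted on its own with edgeR 4.0.16 (limma 3.58.1, R 4.3.3): TMM scaling, filterByExpr by group, quasi-likelihood test fitted over all its groups, and p-values adjusted by Benjamini-Hochberg across every tested gene. The script was tested on simulated data. Alternatives were DESeq2 1.42.0 (Wald test, and its size factors in edgeR), library totals, protein-coding totals (added after seeing the data), no filter, only the compared groups, a minimum of 10 counts in each sample, a replicate block, rows of one symbol summed, an absolute log2 fold change above 1, and each sample left out. The authors' totals of 41542533 to 78498230 counts per sample limit precision little for these genes, whose lowest count was 185. Tables were made with Python 3.11.15.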

Additional observations from a re-analysis of the deposited data

Results flagged for a closer look

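The genotype effect differed between 3D and 2D culture by the test of the difference itself for 29 of the 46 genes, all more negative in 3D. The genes with the lowest adjusted p were Cdc7, at −1.12, Pole2, at −1.28, and Mcm4, at −0.88 log2 units (3D effect minus 2D effect). The 3D arm rests on the libraries labelled 3D Cxcl5-/-, in which Cxcl5 exceeded 3D WT by 0.91 on the log2 scale (SE 0.14, edgeR adjusted p = 0.000173). The part of that in these differences was not tested.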

How the results depend on the processing

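Of 59 values of named genes under 1180 alternatives in all, 1098 kept direction and side of the threshold, 5 lost a call, 34 gained one and 43 changed sign. With library totals or protein-coding totals, genes called lower in the libraries labelled 3D Cxcl5-/- numbered 23 and 19, with 1 higher in each. Of all genes, 11.4% and 10.2% were then lower and 35.9% and 38.7% higher. Those more negative in the test of the difference numbered 13 and 10 (6.36% and 5.39% of all genes), with 2 more positive under the latter (25.9%). Without the filter 19 were more negative there (5.13%). The 2D genotype count was 3 with library totals and with no filter. DESeq2, its size factors and the filter of at least 10 counts each gave 1 gene higher in 3D than in 2D WT. Gins3 was uncalled (0 higher in rescue Cxcl5-/-) with DESeq2, its size factors and no filter. Hif1a over Cxcl5-/- gave 1 lower with DESeq2, its size factors, both totals and at least 10 counts, and Myc over Cxcl5-/- gave 1 lower with library totals. Myc over Hif1a gave 2 lower with DESeq2, both totals and at least 10 counts, and 10 higher with library totals. Hif1a over WT gave 11 lower with DESeq2, its size factors and at least 10 counts, 9 and 7 with library and protein-coding totals and 1 with no filter, and 9, 8, 8, 8, 9 and 9 higher in that order. Of all genes, 7.36%, 13.2%, 16.6%, 12.4%, 11.3% and 2.98% were then lower and 5.98%, 8.99%, 16.8%, 7.71%, 11.4% and 6.83% higher. Myc over WT gave 2 lower with DESeq2, its size factors, protein-coding totals and at least 10 counts, 3 with library totals, and 9 higher with library totals. Above an absolute log2 fold change of 1 the counts were 23 lower (3D over 2D WT), 9 (3D genotype), 0 (2D genotype), 6 (difference), 18 lower and 0 higher (rescue genotype), 20 higher (Hif1a), 0 and 0 (Myc over Hif1a), 1 lower and 1 higher (Hif1a over WT) and 0 lower and 2 higher (Myc over WT). The cause of these shifts was not tested.

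With each sample left out in turn, counts ranged from 0 to 1 higher (3D over 2D WT), 1 to 5 lower (2D genotype), 22 to 33 (difference), 0 to 1 higher (rescue genotype), 0 to 1 lower (Hif1a over Cxcl5-/-), 0 to 2 lower (Myc over Hif1a), 1 to 6 lower and 7 to 12 higher (Hif1a over WT), and 0 to 1 lower and 14 to 26 higher (Myc over WT). They also ranged from 35 to 40 lower (3D genotype), 33 to 37 lower (rescue genotype) and 15 to 22 higher (Myc over Hif1a).

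The sign changes of named values listed next fell on genes that were not called. Under library totals and protein-coding totals, in that order, the log2 fold changes of 3D Cxcl5-/- over WT became 0.28 and 0.34 for Orc4, 0.18 and 0.22 for Cdt1, 0.23 and 0.28 for Gins3, 0.32 and 0.35 for Ticrr, 0.17 and 0.21 for Rpa1, 0.25 and 0.28 for Rfc1, and 0.17 and 0.21 for Timeless, with Ticrr at 0.01 with at least 10 counts and between −0.21 and 0.09 with single samples left out. From 2D to 3D WT, Orc3 became −0.05 and Orc5 −0.16 and −0.09. With Myc over Cxcl5-/-, Orc3 became −0.20 and −0.05, Orc4 −0.29 and −0.14, Gins3 −0.25 and −0.11, and Rfc1 −0.20 and −0.05, with Orc4 at −0.03 with at least 10 counts and at −0.01 without MycOE replicate 3. With Hif1a over Cxcl5-/-, Orc5 became −0.03 and Rpa1 −0.01 with library totals, Gins2 −0.18 and −0.08 and Rfc1 −0.18 and −0.08. There Gins2 and Rfc1 were at −0.01 and −0.0039 with DESeq2 size factors and both at −0.04 with at least 10 counts. With single samples left out Orc3 ranged from −0.07 to 0.03, Gins2 from −0.34 (without Cxcl5-/- replicate 1) to 0.60, and Rfc1 was at −0.06 without Cxcl5-/- replicate 2.

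The deviations of same-numbered samples correlated at −0.24 to 0.36 in the conditioned medium table, −0.10 to 0.18 in the 2D and 3D table and −0.02 to 0.05 in the rescue table, over 0.1 for 3 of 9, 1 of 18 and 0 of 13 pairs, so the numbers were not taken to pair the samples. In the conditioned medium table the 10 highest genes took 18.1 to 18.5% of counts in the replicates numbered 1 and 22.0 to 23.0% in those numbered 3. Of 9, 12 and 10 samples, 2, 1 and 2 correlated best with their own number in every other group. With the replicate block 40 genes were lower under the 3D Cxcl5-/- label, 30 more negative in the test of the difference, 36 lower and 1 higher in rescue Cxcl5-/-, and 0 lower with Myc over WT.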
